A study of Oryza sativa with 9 samples.

Results

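Abscisic acid (ABA) is the plant hormone best known for its rise under drought and salt, and its amount in a tissue is set by synthesis, breakdown, conjugation and transport. It is made from plastid carotenoids. The 9-cis-epoxycarotenoid dioxygenases (NCED) cut the carotenoid precursor to xanthoxin, which is generally regarded as the step that limits synthesis, and later enzymes turn xanthoxin into ABA. The main route of breakdown opens with the ABA 8′-hydroxylases (ABA8ox), cytochrome P450 enzymes of the CYP707A family whose product converts to phaseic acid. The genes described here are 3 NCED loci and 3 ABA8ox loci of rice, 6 of the 57931 features of the deposited table. They were taken by locus name: LOC_Os03g44380 (NCED3), LOC_Os07g05940 (NCED4), LOC_Os12g42280 (NCED5), LOC_Os02g47470 (ABA8ox1), LOC_Os08g36860 (ABA8ox2) and LOC_Os09g28390 (ABA8ox3). All 6 were in the table, and their transcripts were measured; the hormone itself was not.

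The libraries came from rice roots harvested a month after planting, with 3 biological replicates per group. R1, labelled as common rice of the cultivar Normal_Rice_R1, is a strain that the study describes as a japonica-indica hybrid with low salt tolerance, and it was grown in fresh water (FW). Sea Rice 86 (SR86), a cultivar bred from a wild strain found on seawater-flooded land, was grown in FW and in salt water (SW). No library was of R1 in SW. In 1 sentence of the study's methods the waters are assigned the other way round from its labels, which were followed. Values of a group are listed in the order of its replicates 1, 2 and 3, and SR86 FW1 is replicate 1 of SR86 in FW. Expression is given in FPKM, fragments per kilobase of transcript scaled to the mapped fragments of the library, so levels can be compared between genes of unequal length. A change in FPKM cannot tell more RNA per cell from more cells of the type that makes it.

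The low values of the table step in whole reads, and their most frequent ratio to those of R1 FW1 gave depths relative to that library. These were at most 1.68 in R1 FW and 1.37 in SR86 FW, and at least 1.74 in SR86 SW. In the SR86 libraries that ratio held for 107 to 192 of 2864 to 3284 genes, so the depths are rough. By this estimate each SR86 SW library was deeper than each SR86 FW library. The lowest SW depth and the highest R1 depth were a single 0.05 bin of log2 ratio apart, and absolute depths were not worked out. Replicates correlated across genes, which are not independent replicates, at 0.926 or more on the log2(FPKM + 0.5) scale, and at 0.983 or more within R1. SR86 FW3 and SR86 SW3 were the least like the others of their groups. The root silicon transporters Lsi1 and Lsi2 summed to 255.4, 819.12 and 377.2 FPKM in SR86 FW, to 722.52 FPKM or more in SR86 SW and to 519.3 to 556.28 FPKM in R1, so that SR86 FW1 and SR86 FW3 were below all other libraries. The 6 green-tissue markers, for the Rubisco small subunit and chlorophyll-binding proteins, summed to at most 8.57 FPKM in the R1 libraries and 19.07 FPKM in those of SR86 in SW, with 65.71 FPKM in SR86 FW1 and 9.04 and 12.16 FPKM in SR86 FW2 and SR86 FW3. Of these, 1 chlorophyll-binding locus, LOC_Os01g52240, was at 0 in 6 of the 9 libraries.

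NCED5 was the most abundant NCED transcript in every library. It had 34.19, 28.55 and 36.18 FPKM in R1 FW, a mean of 33.0 ± 3.96 FPKM (SD, n = 3). In SR86 FW it had 30.99, 18.26 and 7.11 FPKM, a mean of 18.8 ± 11.9 FPKM. In SR86 SW it had 5.83, 6.03 and 6.38 FPKM, a mean of 6.08 ± 0.278 FPKM. The SW libraries lay together and below every FW library of either strain, while the SR86 FW libraries were spread from the R1 range almost down to the SW range.

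NCED3 was lower than NCED5 in every library. In R1 FW it had 3.87, 3.00 and 2.77 FPKM. In SR86 FW it had 4.01, 1.86 and 2.46 FPKM, and in SR86 SW it had 1.64, 1.35 and 1.72 FPKM. The ranges of the strains in FW overlapped, and all SW libraries were below both.

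NCED4 had its highest level in R1. It had 4.55, 3.56 and 5.14 FPKM in R1 FW, a mean of 4.42 ± 0.798 FPKM (SD, n = 3). In SR86 FW it had 1.31, 0.98 and 0.77 FPKM, and in SR86 SW it had 0.37, 1.58 and 0.26 FPKM. Every SR86 library, in either water, was below every R1 library, and SR86 SW2 stood above all SR86 FW libraries. NCED4 was above NCED3 in every R1 library, though the ranges of the genes overlapped, and below it in every SR86 FW library. In SR86 SW it was above NCED3 in SR86 SW2 and below it in SR86 SW1 and SR86 SW3.

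The highest group mean of the hydroxylases was that of ABA8ox2 in R1 FW and SR86 FW and that of ABA8ox1 in SR86 SW. ABA8ox1 had 9.15, 9.07 and 10.66 FPKM in R1 FW, a mean of 9.63 ± 0.896 FPKM (SD, n = 3). In SR86 FW it had 4.02, 3.24 and 9.22 FPKM, a mean of 5.49 ± 3.25 FPKM. In SR86 SW it had 13.44, 13.17 and 7.86 FPKM, a mean of 11.5 ± 3.15 FPKM. SR86 FW1 and SR86 FW2 were the lowest of all libraries and SR86 SW1 and SR86 SW2 the highest, but the replicate 3 libraries of the waters were in reverse order, so the groups overlapped.

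ABA8ox2 had 15.20, 15.41 and 12.55 FPKM in R1 FW, 14.20, 7.54 and 7.07 FPKM in SR86 FW, and 1.98, 3.85 and 8.02 FPKM in SR86 SW. All SW libraries were below all R1 libraries. SR86 FW overlapped both, since SR86 FW1 lay in the R1 range and SR86 SW3 was above SR86 FW2 and SR86 FW3. ABA8ox3 was close to the bottom of the table, at 0.07 to 0.13 FPKM in R1 FW and at most 0.08 FPKM in any SR86 library, with 3 of the 6 SR86 libraries listed at 0. It did not pass the filter on low values and was not tested. In group means, NCED5 lay at percentile 86.9 of the features above 0 in R1 FW, 79.0 in SR86 FW and 61.9 in SR86 SW, against 68.0, 59.9 and 71.5 for ABA8ox1.

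**Figure D1:**
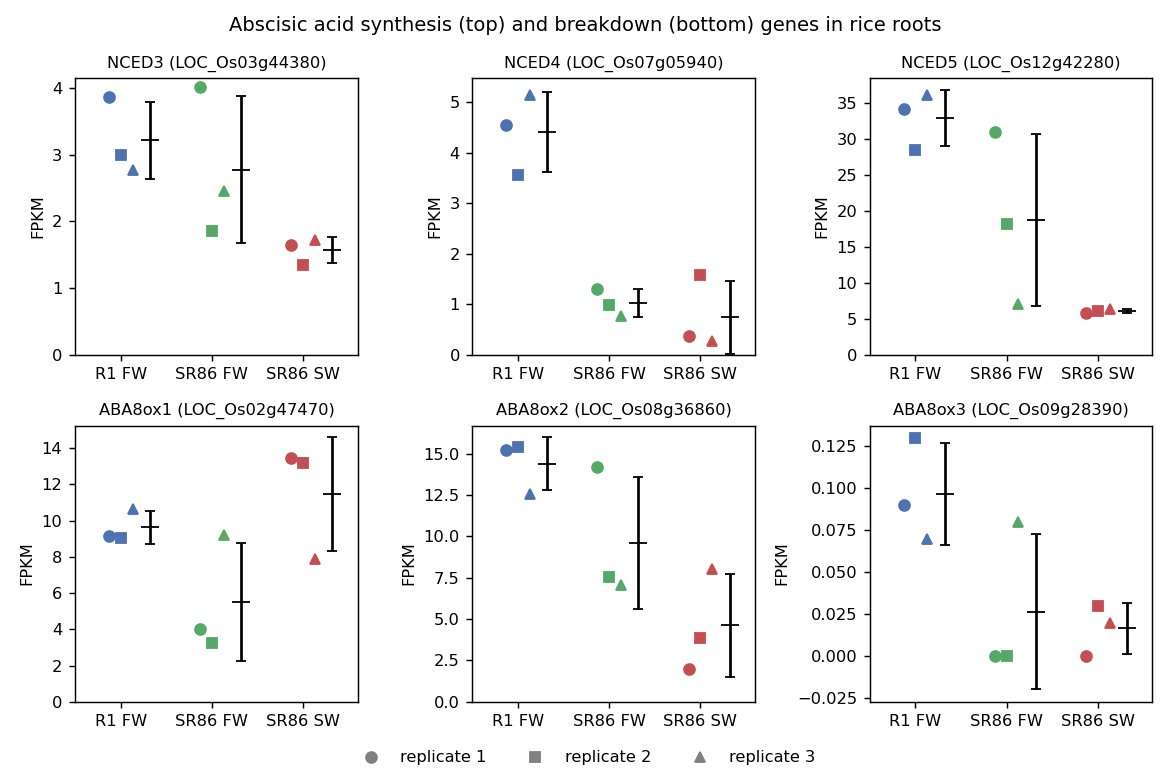
FPKM of the 6 genes (y axis, a scale per gene) in R1 FW, SR86 FW and SR86 SW (x axis). Colored symbols are single libraries, their shape gives the replicate number, and the black bar is the mean ± SD of 3 libraries. NCED5 sits between 5.83 and 6.38 FPKM in SW and spreads from 7.11 to 30.99 FPKM in SR86 FW, and NCED4 is at least 3.56 FPKM in R1 and at most 1.58 FPKM in SR86.

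The comparison of SW with FW within SR86 asks which of these genes changed with the salt water. Groups were compared with limma on log2(FPKM + 0.5), over the genes whose mean reached 0.5 FPKM in the 6 libraries. A gene was called where the groups differed by 2-fold or more and the p, adjusted by the Benjamini-Hochberg method, was under 0.05. Of the 5 ABA genes tested, 0 were called in limma, and 2, NCED5 and ABA8ox1, had an unadjusted p under 0.05. So did 9279 of all 23718 genes tested. Over all 23718 genes tested, 12.7% were called, 8.41% as higher and 4.29% as lower in SW. The median log2 fold change was -0.61 for the 5 genes and 0.17 for all genes tested, so the values below sit against that shift. There was no overlap between the waters in 2 of the 5, NCED3 and NCED5, against 44.9% of all genes tested.

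Of the 5 genes, NCED5 had the largest estimate, 2.51-fold lower in SW (log2 fold change of -1.33, SE 0.479, 95% interval -2.46 to -0.19, limma adjusted p = 0.0893). Without SR86 FW3 it was called, at a log2 fold change of -1.89 (limma adjusted p = 0.0112). Without SR86 FW1, the library with the highest green-marker sum, the log2 fold change was -0.86 (limma adjusted p = 0.189). SR86 FW1 also had the lowest root-marker sum, and the part of either marker group in its value was not tested. The fit of all 9 libraries, in which the even R1 libraries enter the estimate of the spread, called NCED5 (limma adjusted p = 0.0367). That fit called 4084 genes in all and the fit without SR86 FW3 called 3822, against 3012 with the 6 libraries compared.

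ABA8ox1 was estimated 2.13-fold higher in SW (log2 fold change of 1.09, SE 0.401, 95% interval 0.14 to 2.04, limma adjusted p = 0.0931). It too was called without SR86 FW3, at a log2 fold change of 1.51 (limma adjusted p = 0.0213), and in the fit of all 9 libraries (limma adjusted p = 0.0375). The estimate for ABA8ox2 had the opposite sign, with a log2 fold change of -1.09 (SE 0.485, 95% interval -2.24 to 0.05, limma adjusted p = 0.142), and without SR86 SW1 it was -0.66. Leaving out both replicate 3 libraries, an alternative chosen after seeing the data, gave calls for NCED5 (-1.92), ABA8ox1 (1.75) and ABA8ox2 (-1.73), with limma adjusted p of 0.0169, 0.0126 and 0.0433. That fit, with a library fewer in each group, called 4659 genes in all, against 3012 in the main fit.

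NCED3 had a log2 fold change of -0.61 (95% interval -1.32 to 0.10, limma adjusted p = 0.173) although its groups did not overlap, and without SR86 FW1 it was -0.36. NCED4 had a log2 fold change of -0.44 (95% interval -1.46 to 0.58, limma adjusted p = 0.481). The estimate was -0.89 without SR86 SW2 and -0.16 without SR86 SW3. The intervals of both genes include a 2-fold fall as well as no difference. With quantile normalization or median-ratio size factors, which brought the median of all genes to 0.01 and 0.02, the signs of the 5 estimates stayed as given and 0 of the 5 were called.

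**Figure D2:**
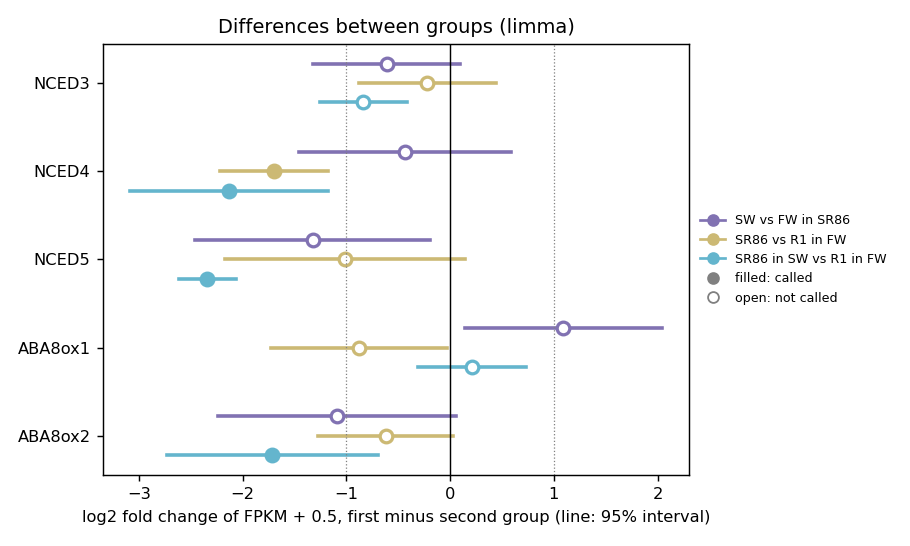
Log2 fold changes of FPKM + 0.5 (x axis) of the 5 tested genes (y axis) in the 3 comparisons between groups, with the first-named group minus the second. Lines are 95% intervals, filled circles are called genes and dotted lines mark a 2-fold difference. The open circles of SW against FW lie at -1.33 for NCED5 and 1.09 for ABA8ox1, and the filled ones of SR86 SW against R1 FW at -2.34 for NCED5 and -2.13 for NCED4.

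The comparison of SR86 with R1 in FW asks how the strains differed without salt water. In this comparison 1 of the 5 genes was called, NCED4, lower in SR86, where 14.1% of the 23168 genes tested were called, 6.85% as higher and 7.22% as lower. NCED4 was 3.24-fold lower in SR86 (log2 fold change of -1.70, SE 0.217, limma adjusted p = 0.00333). The call was kept in each fit that left out a library, with log2 fold changes from -1.83 to -1.57 and limma adjusted p from 0.00347 to 0.0289. Reads of both strains were mapped to 1 transcript set, so lower expression and poorer mapping of SR86 sequence cannot be told apart for this gene.

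All 5 estimates were below 0, with a median log2 fold change of -0.88 against -0.03 for all genes tested, and the groups did not overlap in 1 of the 5, against 50.9% of all genes tested. NCED5 had a log2 fold change of -1.01 (95% interval -2.17 to 0.15, limma adjusted p = 0.153). Without SR86 FW1 it was -1.48 and called (limma adjusted p = 0.0441), and without SR86 FW3 it was -0.45. ABA8ox1 had a log2 fold change of -0.88 (95% interval -1.73 to -0.03, limma adjusted p = 0.103), and without SR86 FW3 it was -1.30 and called (limma adjusted p = 0.00255). ABA8ox2 had -0.62 (95% interval -1.27 to 0.03, limma adjusted p = 0.125), and without SR86 FW1 it had -0.93 (limma adjusted p = 0.00995), short of 2-fold. NCED3 had -0.22 (95% interval -0.88 to 0.44, limma adjusted p = 0.558).

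Between SR86 in SW and R1 in FW, strain and water differ together and cannot be told apart. Each library of this comparison serves in a comparison above, and those of SR86 in FW are common to the comparisons above. Of the 5 genes, 3 were called, all lower in SR86 SW, and of the 23800 genes tested 19.5% were called, 12.2% as higher and 7.29% as lower. NCED5 was 5.07-fold lower (log2 fold change of -2.34, SE 0.115, limma adjusted p = 6.09e-05) and stayed called in each fit that left out a library, from -2.44 to -2.27. NCED4 was 4.38-fold lower (log2 fold change of -2.13, SE 0.398, limma adjusted p = 0.00848), with -2.58 to -1.86 and limma adjusted p of at most 0.0401 in those fits.

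ABA8ox2 was 3.29-fold lower (log2 fold change of -1.72, SE 0.422, limma adjusted p = 0.0219). Its call was lost without R1 FW1 (-1.67), R1 FW2 (-1.67), R1 FW3 (-1.81) or SR86 SW2 (-1.69), with limma adjusted p of 0.0773, 0.0705, 0.0623 and 0.0604. NCED3 passed the p threshold but not the 2-fold one (log2 fold change -0.84, limma adjusted p = 0.0123). It was called with quantile normalization, at -1.12, and missed the p threshold without R1 FW1 (limma adjusted p = 0.0631). ABA8ox1 had a log2 fold change of 0.21 (95% interval -0.31 to 0.73, limma adjusted p = 0.474), so a 2-fold difference lies outside its interval, and without SR86 SW3 it was 0.45 (limma adjusted p = 0.0192). In 4 of the 5 genes the groups did not overlap, against 53.6% of all genes tested.

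Sums over each family are given as a description without a test. Ratios and shares within a library do not depend on how libraries were scaled to each other. The summed FPKM of NCED3, NCED4 and NCED5 ran from 35.11 to 44.09 in R1 FW. It was 36.31, 21.1 and 10.34 in SR86 FW and 7.84, 8.96 and 8.36 in SR86 SW, below every FW library. The summed ABA8ox level ran from 23.28 to 24.61 in R1 FW. In SR86 it was 18.22, 10.78 and 16.37 in FW and 15.42, 17.05 and 15.9 in SW. Every SR86 library was thus below every R1 library, and the ranges of the waters overlapped. The NCED sum was 1.43 to 1.89 times the ABA8ox sum in R1 FW and 0.508 to 0.526 times in SR86 SW. In SR86 FW1 and SR86 FW2 it was 1.99 and 1.96 times, and in SR86 FW3 it was 0.632 times. By this ratio SR86 FW3 lay next to the SW libraries and the other SR86 FW libraries just above R1.

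NCED5 made up at least 80.2% of the NCED sum in each R1 library, and in SR86 it made up 68.8% to 86.5% in FW and 67.3% to 76.3% in SW. It was 8.83 to 13.1 times as high as NCED3 in R1 FW and 3.55 to 4.47 times in SR86 SW. In SR86 FW the ratio was 7.73, 9.82 and 2.89, again with SR86 FW3 apart from its group. NCED4 was 10.1% to 11.7% of the NCED sum in R1 FW and 3.61% to 7.45% in SR86 FW, and in SR86 SW it was 4.72%, 17.6% and 3.11%.

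**Figure D3:**
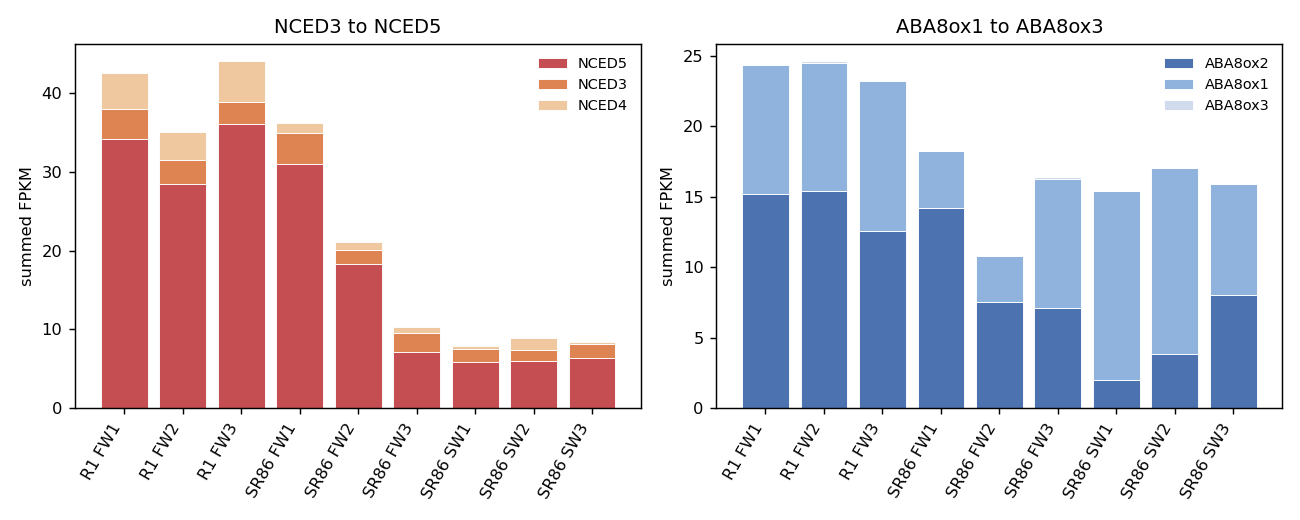
Stacked FPKM (y axis) of the NCED genes, left, and of the ABA8ox genes, right, in each of the 9 libraries (x axis). The NCED stack is highest in R1 FW3, at 44.09, and lowest in SR86 SW1, at 7.84, and these differ mostly in the NCED5 part. The ABA8ox stack is 23.28 to 24.61 in R1 FW and 10.78 to 18.22 in SR86.

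The ratio of ABA8ox1 to ABA8ox2 was 0.602, 0.589 and 0.849 in R1 FW, so ABA8ox2 was the higher of the pair in every R1 library. In SR86 FW the ratio was 0.283, 0.430 and 1.30. In SR86 SW it was 6.79, 3.42 and 0.980. In SR86 SW1 and SR86 SW2 most of the hydroxylase transcript was thus ABA8ox1, 87.2% and 77.2% of the sum, and in SR86 FW1 and SR86 FW2 it was 22.1% and 30.1%. The replicate 3 libraries of SR86 lay between these pairs, at 56.3% in FW and 49.4% in SW.

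**Figure D4:**
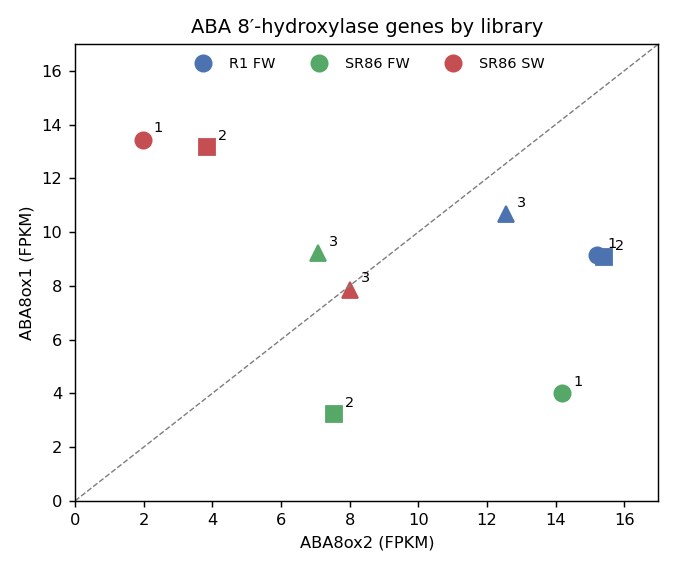
ABA8ox1 against ABA8ox2, both in FPKM, with 1 symbol per library, colored by group and numbered by replicate. The dashed line marks equal levels. SR86 SW1 and SR86 SW2 lie far above the line, all R1 libraries and SR86 FW1 and SR86 FW2 below it, and the replicate 3 libraries of SR86 near it.

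Across the 9 libraries, which fall into 3 groups and so are not independent points, log2(FPKM + 0.5) of NCED5 had a Pearson r of 0.83 with NCED3, 0.81 with NCED4 and 0.84 with ABA8ox2. ABA8ox1 had an r of -0.39 with NCED5 and -0.42 with ABA8ox2. Over the 21250 genes whose mean reached 1 FPKM, those with the profile most like NCED5 were LOC_Os01g55050 (r = 0.987), LOC_Os12g02240 (r = 0.986) and LOC_Os01g60520, annotated as WRKY116 (r = 0.979). LOC_Os12g02240 had group means of 44.6, 16.7 and 4.25 FPKM in R1 FW, SR86 FW and SR86 SW. Most like ABA8ox1 were LOC_Os01g03630, annotated as a multicopper oxidase domain protein (r = 0.985), LOC_Os03g55070 (r = 0.981) and LOC_Os06g49790 (r = 0.978).

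For ABA8ox2 the nearest profiles were those of LOC_Os02g41840 (r = 0.983), LOC_Os01g43774, annotated as a cytochrome P450 72A1 (r = 0.973), and LOC_Os01g29870 (r = 0.972). NCED4 was nearest to LOC_Os03g51260 (r = 0.969) and to the retrotransposon loci LOC_Os02g22250 (r = 0.965) and LOC_Os12g02814 (r = 0.964), the former of which had 11.6, 1.29 and 0.703 FPKM in the groups in the same order. NCED3 was nearest to LOC_Os06g04220 (r = 0.971), LOC_Os01g56470 (r = 0.953) and LOC_Os05g50820 (r = 0.947). All these values are over the same 9 libraries.

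Of 21 other genes of the route to ABA, 2 more NCED loci, 9 genes of the steps beside NCED and 10 genes of carotenoid supply, all 21 were in the table. NCED1 (LOC_Os02g47510) had 1.23, 1.82 and 0.56 FPKM in R1 FW. In SR86 FW it had 0.12, 0.17 and 0.07 FPKM, and in SR86 SW it had 1.03, 0.29 and 0.30 FPKM. The SW libraries were all above the SR86 FW ones, at levels under the filter of that comparison. With no filter the log2 fold change between the waters was 0.68 (SE 0.278, limma adjusted p = 0.174), opposite in sign to those of NCED3, NCED4 and NCED5.

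NCED2 (LOC_Os12g24800) had 1.6, 1.78 and 1.49 FPKM in R1 FW and 0.03 FPKM in SR86 FW2, and was listed at 0 in the 5 other SR86 libraries. Both loci were called as lower in SR86 than in R1 in FW, with log2 fold changes of -1.39 (limma adjusted p = 0.0207) for NCED1 and -2.06 (limma adjusted p = 0.000646) for NCED2, the sizes of which rest on the pseudocount. NCED1 lost its call without R1 FW1 (limma adjusted p = 0.0905) and without SR86 FW2 (limma adjusted p = 0.0522) and with a pseudocount of 1, and fell under the filter without R1 FW2. Together with NCED4, 3 of the 5 NCED loci were called as lower in SR86 in FW, where 7.22% of all genes tested were. NCED1 and NCED2 passed the filter only through R1, the group in which they were higher. The count of NCED loci is therefore not read against that share. For a locus near 0 in a strain, low expression and sequence that maps poorly cannot be told apart. By locus number, 3 loci lie between NCED1 and ABA8ox1. Of these, LOC_Os02g47480 and LOC_Os02g47490 were at or under 0.1 FPKM in every library, and LOC_Os02g47500, annotated as a nodulin, had group means of 4.15, 12.3 and 17.6 FPKM in R1 FW, SR86 FW and SR86 SW.

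Between SW and FW, 18 of the 21 genes were tested and 2 were called, both lower in SW, where 12.7% of all genes tested were called and 4.29% as lower. The 18 genes had a median log2 fold change of -0.02 against 0.17 for all genes tested. PSY3 (LOC_Os09g38320), a phytoene synthase at the entry to carotenoid synthesis, had 40.85, 23.34 and 30.47 FPKM in SR86 FW and 10.35, 12.60 and 9.09 FPKM in SR86 SW. Its log2 fold change was -1.50 (SE 0.237, limma adjusted p = 0.0164), and against R1, SR86 in FW was higher by 1.30 on the log2 scale (limma adjusted p = 0.00711). R1 FW had 11.43, 12.99 and 12.22 FPKM, so the SR86 FW libraries, which both comparisons share, stood above the other groups. The paralogs PSY1 and PSY2 were not called in either comparison with all libraries, though PSY1 was called as lower in SW without SR86 SW3 and PSY2 as higher in SR86 in FW without SR86 FW3. They had log2 fold changes between the waters of -0.67 (limma adjusted p = 0.19) and -0.37 (limma adjusted p = 0.572).

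The other called gene was an aldehyde oxidase locus, LOC_Os03g57720. Enzymes of this family carry out the last step of ABA synthesis in plants, and which rice locus does so in roots cannot be read from these data. LOC_Os03g57720 had 87.24, 117.84 and 80.06 FPKM in SR86 FW and 28.99, 38.83 and 35.47 FPKM in SR86 SW (log2 fold change of -1.44, SE 0.194, limma adjusted p = 0.0127). R1 FW lay between them, at 61.13, 66.35 and 63.27 FPKM. Against R1, the log2 fold change was 0.56 for SR86 FW (limma adjusted p = 0.0416) and -0.88 for SR86 SW (limma adjusted p = 0.00274). Both were short of 2-fold. The calls of PSY3 and LOC_Os03g57720 between the waters were lost without SR86 SW1, at log2 fold changes of -1.48 and -1.32 (limma adjusted p of 0.0702 and 0.0586), in a fit in which 60 genes in all were called. LOC_Os03g57690, the most abundant aldehyde oxidase locus of the list in R1 FW, had 92.2 ± 21.6 FPKM in SR86 FW and 85.7 ± 13.7 FPKM in SR86 SW (SD, n = 3; log2 fold change -0.09, limma adjusted p = 0.775).

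BCH2 (LOC_Os04g48880), a beta-carotene hydroxylase, passed the p threshold between the waters (limma adjusted p = 0.0338) at a log2 fold change of -0.94, just short of 2-fold, and was called with 3 of the alternative settings (a pseudocount of 0.1, quantile normalization or median-ratio size factors) and without SR86 FW3. It had 8.82, 7.15 and 5.72 FPKM in SR86 FW and 3.4, 3.91 and 3.12 FPKM in SR86 SW. R1 FW had 3.57, 3.2 and 4.53 FPKM, so here too the SR86 FW libraries stood above the other groups. Zeaxanthin epoxidase, the short-chain dehydrogenase ABA2 and the molybdenum cofactor sulfurase ABA3 had log2 fold changes of -0.10, 0.14 and 0.15 between SW and FW (limma adjusted p of 0.777, 0.684 and 0.718). ABA4, needed for neoxanthin formation, had -0.71 (limma adjusted p = 0.124).

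Of the 21 genes, 19 were tested for SR86 against R1 in FW. Called as lower in SR86 were 3 genes, NCED1, NCED2 and the aldehyde oxidase locus LOC_Os07g18120, and 1, PSY3, was called as higher. Of all genes tested, 7.22% were called as lower and 6.85% as higher. NCED1 and NCED2 passed the filter only through R1, so the count of lower calls is not read against that share. The median log2 fold change was 0.08 against -0.03 for all genes tested. LOC_Os07g18120 had 5.50, 4.34 and 5.48 FPKM in R1 FW and 1.8, 1.01 and 3.59 FPKM in SR86 FW. The log2 fold change was -1.20 (limma adjusted p = 0.049). The call was lost with a pseudocount of 0.1, with no filter and in each fit that left out a library other than SR86 FW3, where the log2 fold changes ran from -1.31 to -0.86. Between SR86 in SW and R1 in FW, 19 were tested and 1 was called, against 19.5% of all genes tested. That gene was NCED2, which passed the filter only through R1 there as well.

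**Figure D5:**
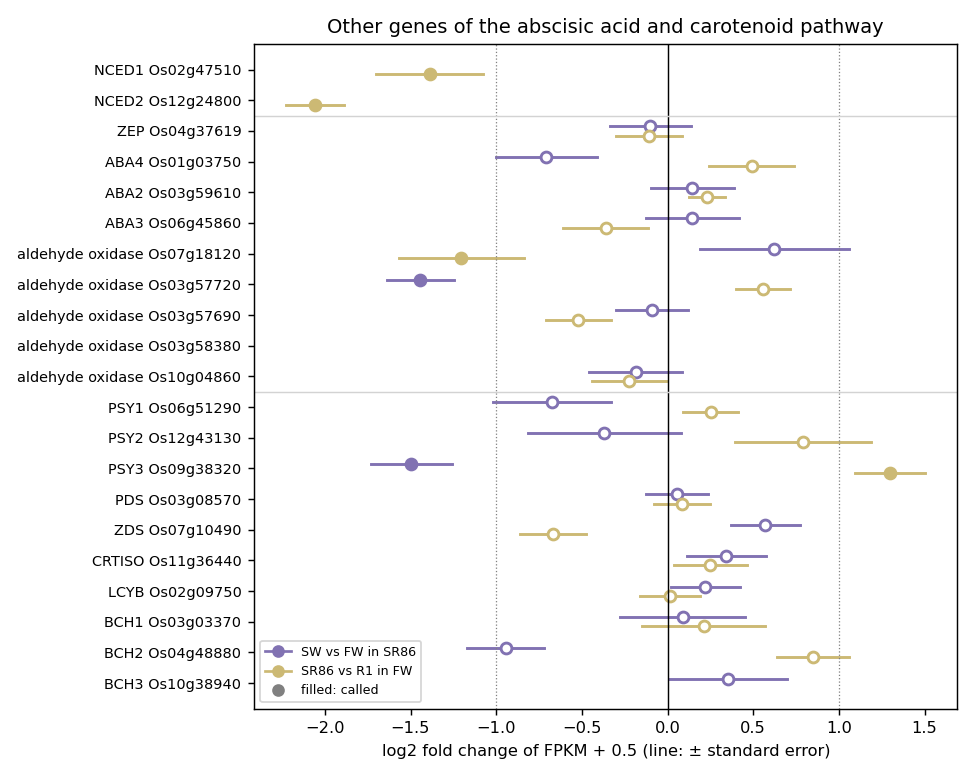
Log2 fold changes of FPKM + 0.5 (x axis) of the 21 other pathway genes (y axis) for SW against FW in SR86 and for SR86 against R1 in FW, with standard errors as lines and filled circles for called genes. Genes under the filter have no symbol. PSY3 lies at -1.50 in the first comparison and at 1.30 in the second, and NCED1 and NCED2 at -1.39 and -2.06 in the second.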

How the data were processed

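Root RNA was extracted with the RNeasy Plant Mini Kit and made into stranded mRNA libraries. After trimming with Trimmomatic, the authors aligned reads with Bowtie2 to MSU6 transcripts and used RSEM for the expression values, with trimmed-mean (TMM) normalization named in the methods. RSEM divides shared reads between transcripts, so values of near-identical loci are uncertain. The deposited FPKM values have 2 decimals, and the 9 columns each match the description of 1 library. The study tested counts with edgeR, which FPKM values do not allow. Instead, log2(FPKM + 0.5) was fitted in R 4.3.3 by limma 3.58.1, with a variance trend on the mean, over genes whose mean reached 0.5 FPKM, with Benjamini-Hochberg adjustment over all genes tested. For 3 libraries against 3, the smallest two-sided p of an exact permutation test is 0.1. On simulated data for SW against FW (23247 genes) the fit called 70% of 200 genes changed by 2 on the log2 scale, with 4.1% of its calls among unchanged genes. The changed genes were drawn from the more highly expressed ones, and the change was larger than any ABA gene's estimate between the waters. Noise was drawn independently for each gene, without deviations shared across a library, so these shares need not hold for the real data.

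Genes named were the 6 loci, a list of 21 pathway genes, the 3 nearest profiles of each gene (means of 1 FPKM or more), and the loci between ABA8ox1 and NCED1. BCH2 and single libraries were singled out after their values were seen. Genes and lists were chosen with earlier results of these data known. Names such as NCED3 are common names of the loci. Annotations of nearest profiles and neighbouring loci came from the study's lists of differentially expressed genes. A locus given without an annotation may be absent from those lists and annotated elsewhere. The reference table given for rice matched 0 of the feature names, so coordinates and sequences are not given here. Relative depth is the most frequent ratio of low values between a library and R1 FW1, in bins of 0.05 on the log2 scale. Each result was recomputed with 0.1 or 1 as pseudocount, without the filter or with it at 1 FPKM, after quantile normalization or with median-ratio size factors, in a joint fit of the 9 libraries, with the replicate number as a block, and without each library. Leaving out both replicate 3 libraries was added after seeing the data. Descriptions and plots were made in Python 3.11.15 with matplotlib 3.10.9.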

Additional observations from a re-analysis of the deposited data

How the results depend on the processing

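Of the log2 fold changes of the 5 tested ABA genes in the 3 comparisons, 0 changed sign under any alternative. Between SW and FW in SR86, the number of ABA genes called was 2 with all 9 libraries in 1 fit and 0 to 2 with a library left out (3 without replicate 3 of both groups). The number of pathway genes called there was 0 to 4 with libraries left out. Genes called in all were 1804 with no filter and 4084 with all 9 libraries in 1 fit. They were 60 to 3822 with a library left out and 4659 without replicate 3 of both groups. Between SR86 and R1 in FW, 1 to 2 ABA genes, 2 to 5 pathway genes and 1646 to 4761 genes in all were called with a library left out, and 2 pathway genes with the filter at a mean of 1 FPKM, which NCED1 and NCED2 do not pass. Between SR86 in SW and R1 in FW, that filter left 0 pathway genes called, where 1 was called, and with a library left out 2 to 3 ABA genes were called. Same-numbered libraries did not deviate together in every pair (correlations of -0.057, 0.011 and 0.153 for SW and FW, of -0.034, 0.221 and 0.256 for SR86 and R1 in FW, and of -0.031, 0.263 and 0.281 for SR86 in SW and R1 in FW). For unlike numbers they ran from -0.186 to 0.205, from -0.356 to 0.213 and from -0.385 to 0.217, in the same order. Deviations from a mean of 3 libraries are bound to each other, so this check cannot settle whether libraries were paired. The numbers were not taken as pairs in the main fits. With replicate number as a block, 0, 1 and 3 ABA genes were called in the 3 comparisons, as without it. Genes called in all were then 2048 between SW and FW, against 3012 without the block. They were 3489 against 3261 between SR86 and R1 in FW, and 4822 against 4644 between SR86 in SW and R1 in FW. Without SR86 SW1, where 60 genes in all were called, 0 ABA or pathway genes were called between the waters. The spread between 3 libraries limits what could be called, since the intervals of NCED3, NCED4 and ABA8ox2 between the waters held both no difference and a 2-fold one.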
